A study of Mus musculus with 6 samples.

Results

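Stromal matrix and smooth muscle genes were followed in RNA-seq libraries of mouse intestine with and without alk-SMase. The set holds 40 genes of the 22700 listed in the deposited table, chosen by name. They are 26 genes of the extracellular matrix, 3 genes of mesenchymal cells and 11 genes of smooth muscle. The KO group was 3 alk-SMase knockout mice (libraries K79S, K82S and K86S) and the WT group was 3 wild type mice (W83S, W89S and W90S), all of strain C57BL/6, with 1 library per mouse. In the KO mice Cre recombinase had removed exon 2 of Enpp7, the gene of alk-SMase (the intestinal alkaline sphingomyelinase). The labels call the tissue intestinal, the methods name the mucosa of the middle small intestine, and neither states an age, a sex or how the KO and WT mice were paired.

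The wall of the small intestine rests on connective tissue and muscle. Fibroblasts of the lamina propria, the loose tissue under the epithelium, secrete fibrillar collagens and proteoglycans. Epithelium and blood vessels stand on a basement membrane of type IV collagen and laminin. Smooth muscle lies in thin strands within the villi, in the muscularis mucosae at the base of the mucosa and in the thick muscle coat outside it. A mucosal scraping takes these layers along to a degree that depends on its depth, so their genes are read in such tissue as a measure of what was sampled as well as of gene activity. In bulk tissue fewer cells of a type and less RNA per cell cannot be told apart.

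Only 17 of the 40 members could be given a value. In the deposited table the gene identifiers stand beside the values of other genes, and they were put back by rank as far down as 0.954 FPKM in W83S (FPKM, fragments mapped to a gene, scaled by its length and by the size of the library). The other 23 members had identifiers that ranked below the last one that could be placed. They are Col5a1, Col5a2, Col4a2, Lama4, Lamb1, Nid1, Col15a1, Col6a3, Col14a1, Dcn, Lum, Fn1, Fbn1, Mgp, Postn and Timp3 of the matrix, Pdgfra and Pdgfrb of mesenchymal cells, and Actg2, Myh11, Cnn1, Lmod1 and Synpo2 of smooth muscle, and they were not analysed here. Thus 10 matrix genes, 1 mesenchymal gene and 6 smooth muscle genes are described. They were placed through their level in the WT library W83S, so their number is no evidence on the genotypes, and several defining genes of each cell type are among the 23.

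Epithelial genes were far more abundant than the members. All 15 marker genes of enterocytes, the absorptive cells, were placed, and they summed to between 29170 FPKM (K82S) and 45570 FPKM (K86S), led by Apoa1 with 11160 to 14702 FPKM. The 17 members summed to 156 FPKM in K79S, 82.3 in K82S, 209 in K86S, 112 in W83S, 98.6 in W89S and 161 in W90S, which is 0.0177% to 0.0497% of a library's summed FPKM. W83S stood apart by stomach genes, whose 8 placed markers (of 11, led by Tff1) summed to 41040 FPKM there and to at most 5.94 FPKM in the other 5 libraries. Enpp7 ranged from 129 to 669.7 FPKM in the KO libraries and from 406 to 667 FPKM in the WT libraries. These ranges overlapped, with K79S at 604.5 FPKM, K86S at 669.7 FPKM and K82S the lowest of all libraries. The values are for the whole gene, and reads of the removed exon cannot be separated in them. Whether Enpp7 bears out the genotype labels was therefore not tested.

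3 promoter windows are shown first, as examples of a smooth muscle gene, a fibrillar collagen and a basement membrane collagen. They come from RefSeq on GRCm38.p6 and run from 250 bases before the annotated start to 50 bases after it, 5′ to 3′ on the strand of the gene. In Acta2 the capitals mark CArG boxes, the binding sequence of serum response factor, the transcription factor of muscle genes, with 1 of the 6 central bases allowed to be G or C. In Col1a2 they mark CCAAT on either strand, and in Col4a1 the 78 bases that also lie in the window of Col4a2, its partner chain, which is read in the opposite direction.
Acta2, chr19:34255324-34255623, minus strand: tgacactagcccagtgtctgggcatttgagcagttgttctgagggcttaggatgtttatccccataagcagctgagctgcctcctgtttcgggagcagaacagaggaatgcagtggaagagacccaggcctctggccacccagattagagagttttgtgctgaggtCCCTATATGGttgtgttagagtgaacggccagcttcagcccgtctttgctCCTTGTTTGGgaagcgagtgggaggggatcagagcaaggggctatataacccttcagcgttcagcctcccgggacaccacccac
Col1a2, chr6:4505368-4505667, plus strand: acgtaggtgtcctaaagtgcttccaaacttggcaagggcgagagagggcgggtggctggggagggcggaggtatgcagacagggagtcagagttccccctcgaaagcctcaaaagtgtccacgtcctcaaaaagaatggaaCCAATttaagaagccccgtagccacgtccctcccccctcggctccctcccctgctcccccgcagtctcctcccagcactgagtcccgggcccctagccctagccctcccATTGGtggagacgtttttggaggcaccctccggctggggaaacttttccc
Col4a1, chr8:11312777-11313076, minus strand: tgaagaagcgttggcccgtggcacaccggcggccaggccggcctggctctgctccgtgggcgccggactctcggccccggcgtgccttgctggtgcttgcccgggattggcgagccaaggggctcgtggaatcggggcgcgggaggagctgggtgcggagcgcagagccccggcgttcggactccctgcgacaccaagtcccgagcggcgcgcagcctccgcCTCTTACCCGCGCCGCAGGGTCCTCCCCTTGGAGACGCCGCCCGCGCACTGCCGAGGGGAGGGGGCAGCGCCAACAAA

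The 2 matches in Acta2 lie 84 bases (CCCTATATGG) and 34 bases (CCTTGTTTGG) before the start used for the window. GENCODE M21 places the gene at chr19:34241090-34255590, so by that annotation this start and both matches lie within it. The Col1a2 window also lies within the GENCODE span of its gene. Such a match was found in 1 of the 8 smooth muscle members and in 4 of the 18 matrix members that have a window, and in 9.96% of all 32544 windows. A strict CArG box was in none of the members' windows and in 1.64% of all windows. CCAAT lay in 4 of the 8 smooth muscle windows and 7 of the 18 matrix genes' windows, against 37.4% of all windows. These matches are descriptions of the letters in the window and not of binding.

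Fibrillar collagens form the rope-like fibres of connective tissue. Col1a1 (chr11:94936224-94953042 of GRCm38, GENCODE M21) encodes the more abundant chain of type I collagen. Its values were 1.09, 1.20 and 3.48 FPKM for K79S, K82S and K86S, and 2.20, 1.06 and 1.33 FPKM for W83S, W89S and W90S. K86S was the highest and the other KO libraries lay within the range of WT.

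Col1a2, the other chain of type I collagen, had 0.588, 0.803 and 1.98 FPKM in the KO libraries and 1.01, 0.589 and 0.637 FPKM in the WT libraries, in the same order of libraries. Col3a1, the collagen of the fine reticular fibres, had 2.17, 2.41 and 4.80 FPKM in KO and 2.18, 1.54 and 1.32 FPKM in WT. For both genes K86S was about double the next library, with a ratio of 1.95 for Col1a2 and 2.0 for Col3a1. For Col3a1 the KO libraries lay at or above the highest WT library but for K79S, which was 2.167 against 2.177 FPKM in W83S.

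The basement membrane genes that could be placed were Col4a1 and Col18a1. Col4a1 (chr8:11198423-11312826), a chain of the type IV collagen network, had 1.14, 1.20 and 4.73 FPKM in KO and 1.28, 0.579 and 0.922 FPKM in WT. Among the members it was the one in which K86S stood farthest above the rest, at 3.69 times the next library. Col18a1, whose C-terminal fragment is endostatin, had 1.25, 1.06 and 2.65 FPKM in KO and 1.19, 0.792 and 0.737 FPKM in WT. Exons of Col4a1 overlap exons of Col4a2 on the other strand, and the handling of strand is not given in the sources used here, so some reads of these genes cannot be told apart.

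Type VI collagen makes beaded filaments around cells. Its genes Col6a1 and Col6a2 lie next to each other on chromosome 10, at chr10:76708792-76726168 and chr10:76595762-76623630. Col6a1 had 2.39, 1.98 and 7.64 FPKM in KO and 2.30, 1.73 and 1.35 FPKM in WT. Col6a2 had 1.08, 0.943 and 4.32 FPKM in KO and 1.33, 1.22 and 0.837 FPKM in WT. K86S was 3.20 and 3.26 times the next library, and KO and WT overlapped for both genes with it as well as without it.

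Bgn encodes biglycan, a small proteoglycan that binds collagen fibrils. It had 1.73, 1.94 and 4.48 FPKM in KO and 1.58, 1.56 and 1.58 FPKM in WT, and was the only member with no overlap between KO and WT. K79S was close to WT, and most of the difference came from K86S. Sparc, a secreted protein that binds collagen and calcium, had 2.20, 3.98 and 7.34 FPKM in KO and 3.27, 2.02 and 2.26 FPKM in WT.

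Fbln1, the gene of fibulin-1, a glycoprotein of elastic fibres and basement membranes, was the exception among the matrix genes in level. Its KO libraries had 96.7, 24.7 and 106 FPKM and its WT libraries 62.2, 52.9 and 80.0 FPKM. FPKM is divided by gene length, so these levels can be set beside those of the other matrix members, which were all at or under 7.64 FPKM. Fbln1 was also the only matrix member with its lowest value in K82S, and K79S and K86S differed little. The summed enterocyte markers were likewise lowest in K82S (29170 FPKM) and highest in K86S (45570 FPKM). Whether epithelium added to the Fbln1 values was not tested. Fbln1 held most of the summed FPKM of the matrix members, which without it fell from 110 to 13.6 FPKM in K79S.

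**Figure D1:**
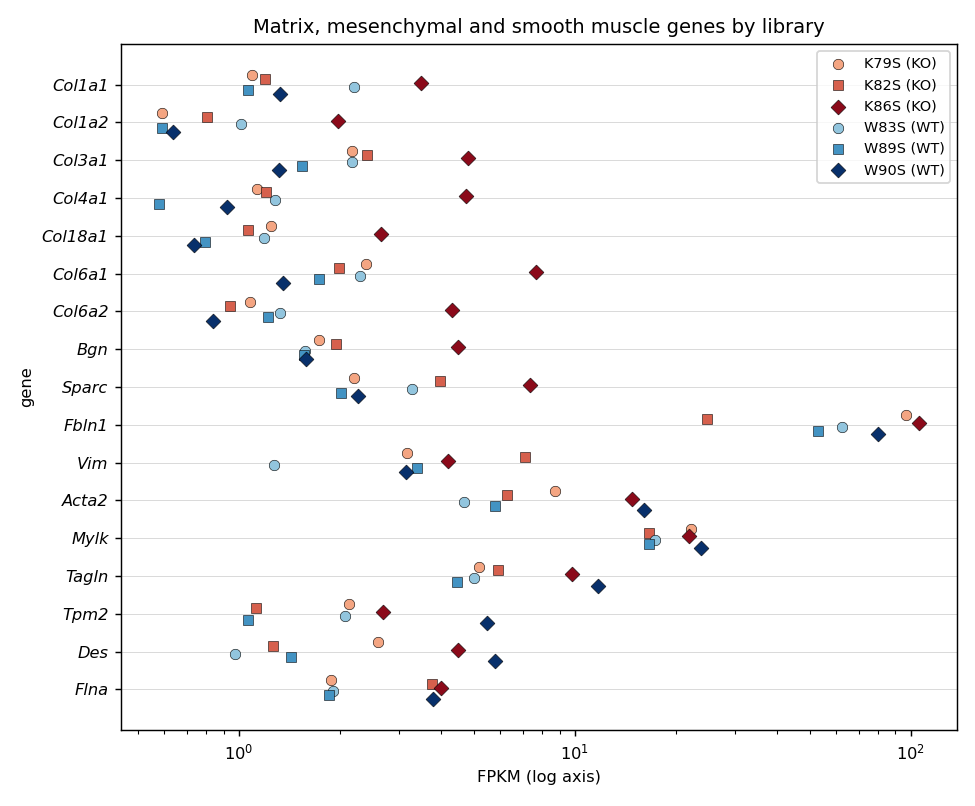
FPKM (log axis) of the 17 placed members, with 1 point per library, red for the 3 KO libraries and blue for the 3 WT libraries, and small vertical offsets so that points do not cover each other. K86S, the dark red diamond, lies to the right of every other library for the 10 matrix members from Col1a1 to Fbln1, and W90S, the dark blue diamond, lies farthest right for 5 of the 6 smooth muscle members.

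Vim, the intermediate filament of mesenchymal cells and of many leukocytes, followed neither pattern. It had 3.15, 7.11 and 4.20 FPKM in KO and 1.27, 3.39 and 3.13 FPKM in WT. K82S was the highest and W83S the lowest, and K79S lay below W89S, so the groups overlapped.

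Smooth muscle genes had another order of libraries. Acta2 (chr19:34241090-34255590), the smooth muscle actin of vessels, myofibroblasts and visceral muscle, had 8.70, 6.27 and 14.8 FPKM in the KO libraries and 4.68, 5.80 and 16.1 FPKM in the WT libraries. Tagln (chr9:45929619-45936058), an actin-binding protein of smooth muscle, had 5.19, 5.91 and 9.77 FPKM in KO and 4.99, 4.47 and 11.7 FPKM in WT. In both genes 1 WT and 1 KO library were high and the other 4 were low.

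Tpm2, the beta-tropomyosin of thin filaments, had 2.13, 1.12 and 2.69 FPKM in KO and 2.07, 1.07 and 5.47 FPKM in WT. Des (chr1:75360329-75368579), the intermediate filament of muscle, had 2.59, 1.27 and 4.48 FPKM in KO and 0.974, 1.42 and 5.80 FPKM in WT. W90S was 2.03 times the next library for Tpm2 and 1.29 times for Des.

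Mylk, the kinase that starts contraction by phosphorylating the myosin light chain, is also expressed outside muscle. It had 22.2, 16.6 and 21.9 FPKM in KO and 17.4, 16.6 and 23.8 FPKM in WT, and its highest library was only 1.44 times its lowest. Flna, an actin crosslinker found in most cells, had 1.88, 3.76 and 3.99 FPKM in KO and 1.91, 1.85 and 3.78 FPKM in WT. Here K82S joined K86S and W90S at the upper level. Acta2 shares long stretches of sequence with the other actin genes, and exons of Tagln, Des and Mylk overlap exons of genes on the other strand, so reads at these genes could have been split or added by the counting.

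Thus the matrix and the muscle genes differed in the library that was highest. K86S was highest for 10 of 10 matrix members, against 12.5% of all 13089 rows tested. It was above 1.5 times the next library for 9 of 10 (all but Fbln1, at 1.1 times), against 0.8% of all rows. For the 6 smooth muscle members this ratio was reached by K86S in none. W90S was highest for 5 of them, against 20.2% of all rows, and in the same number both K86S and W90S lay above the other 4 libraries, against 5.71% of all rows and none of the matrix members. Mylk was only among the former and Flna only among the latter, by a near tie of 3.775 FPKM in W90S with 3.764 FPKM in K82S. These are counts in single mice, the groupings were made after the values had been seen, and genes of a cell type are not independent, so no test was made.

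Summed over genes, the 7 placed collagens had 9.7, 9.6 and 29.6 FPKM in KO and 11.5, 7.51 and 7.13 FPKM in WT. The smooth muscle members without Mylk, which held much of their sum, had 20.5, 18.3 and 35.8 FPKM in KO and 14.6, 14.6 and 42.8 FPKM in WT. W90S was therefore lowest for collagen and highest for muscle. The log2 ratio of the geometric mean of Acta2, Tagln, Tpm2 and Des to that of the 7 collagens, which does not depend on the scaling of a library, was 1.65, 1.08 and 0.73 in K79S, K82S and K86S and 0.75, 1.34 and 3.17 in W83S, W89S and W90S. W90S alone was above 2 by this measure, and the KO libraries lay between the WT libraries but for K86S, which was just below W83S.

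**Figure D2:**
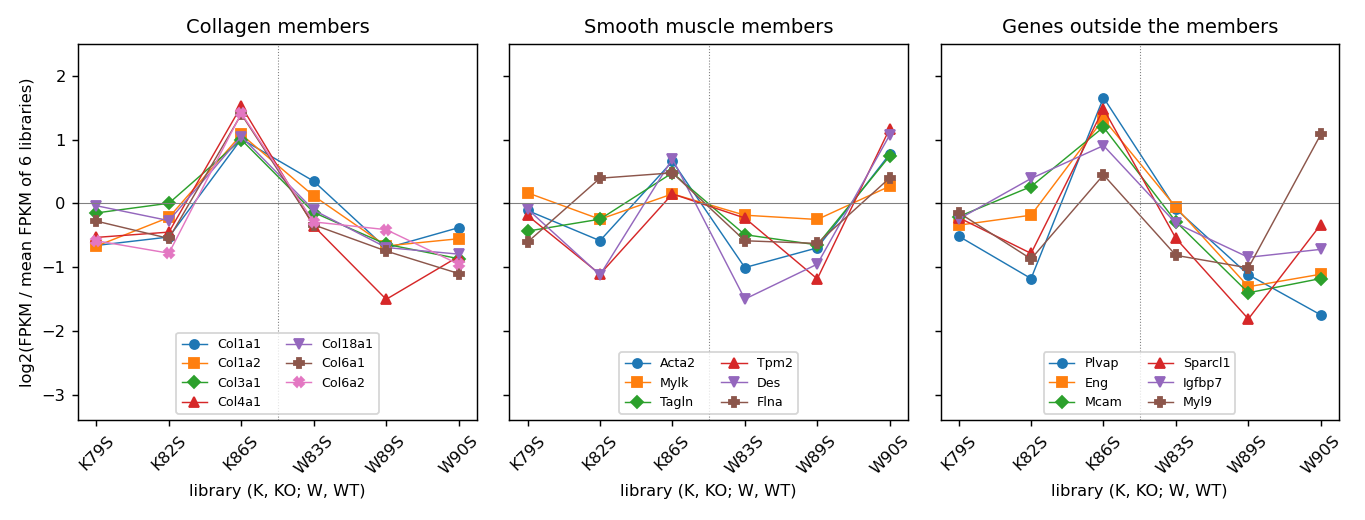
log2 of FPKM over the mean of the 6 libraries, by library, with 1 line per gene, for the 7 placed collagens, the 6 smooth muscle members and 6 genes outside the set, and a dotted line between KO and WT. The collagens share a peak at K86S, the smooth muscle genes are high at K86S and W90S, and of the genes outside the set 5 peak at K86S and Myl9 at W90S. These 6 do not stand for their lists, and Sparcl1 and Myl9 were added after their values were seen. K86S was highest in 4 of 6 tested genes of other interstitial matrix, 1 of 9 of integrins and matrix receptors and 2 of 10 of the TGF-beta pathway.

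The comparison of KO with WT asked whether the loss of alk-SMase went with a change in these genes. None of the 17 tested members passed the thresholds (limma on log2(FPKM + 1), adjusted p-value under 0.05 and fold change above 1.5 or below 2/3), against 0.00764% of the 13089 rows tested. None had an unadjusted p-value under 0.05, against 2.87% of all rows higher and 9.64% lower in KO. With TPM values 2 members (Col3a1 and Vim) were under it, both higher in KO, against 8.08% of all rows higher and 4.53% lower. Of the members 15 had a mean higher in KO and 2 lower on the log2 scale (Fbln1, one of the latter, turned with TPM, quantile normalization and median scaling), against a higher mean in 42.3% of all rows. Without K86S 9 of 16 tested members were higher and 7 lower, without W83S 11 and 5 of 16, and without W89S 12 and 5 of 17. Among the members 1 (Bgn) had no overlap between the groups and was higher in KO, against 5.9% of all rows, while none lay fully lower, against 11.3%. The median log2 fold change was 0.26 over the members, 0.45 over the matrix members and 0.11 over the smooth muscle members, and -0.06 over all rows tested. With TPM these medians were 0.46, 0.70, 0.31 and 0.09, and with a pseudocount of 0.01 they were 0.43, 0.67, 0.18 and -0.08.

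The lowest p-values were those of Col3a1 and Vim. The mean of Col3a1 was 3.13 ± 1.46 FPKM (SD, n = 3) in KO, against 1.68 ± 0.445 FPKM in WT. Its log2 fold change was 0.58 (standard error 0.26, 95% interval -0.05 to 1.21, adjusted p = 0.398 from limma). The mean of Vim was 4.82 ± 2.05 FPKM in KO, against 2.60 ± 1.16 FPKM in WT, and its log2 fold change was 0.70 (standard error 0.34, interval -0.12 to 1.51, adjusted p = 0.416 from limma). Next came Col18a1 (log2 fold change 0.44, adjusted p = 0.468 from limma), Col6a1 (0.68, adjusted p = 0.483 from limma) and Bgn (0.46, adjusted p = 0.486 from limma). For Bgn, with 2.71 ± 1.53 FPKM in KO and 1.57 ± 0.014 FPKM in WT, the two-sided p of an exact permutation was 0.1, the smallest that 3 libraries against 3 allow. Members with a mean lower in KO on the log2 scale were Tpm2 (-0.25, interval -1.28 to 0.79) and Fbln1 (-0.01, interval -1.33 to 1.30). In plain FPKM the mean of Fbln1 was higher in KO (75.8 against 65.0 FPKM in WT). That of Tagln was slightly lower (6.96 against 7.07 FPKM).

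All 17 intervals included 0, and most were wide. For Col4a1 the interval ran from -0.31 to 1.61 and for Des from -1.11 to 1.41, so changes of more than 2-fold in KO were not excluded by it. The narrowest was that of Mylk, from -0.40 to 0.55. These data therefore do not show that the genotypes were alike in these genes.

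**Figure D3:**
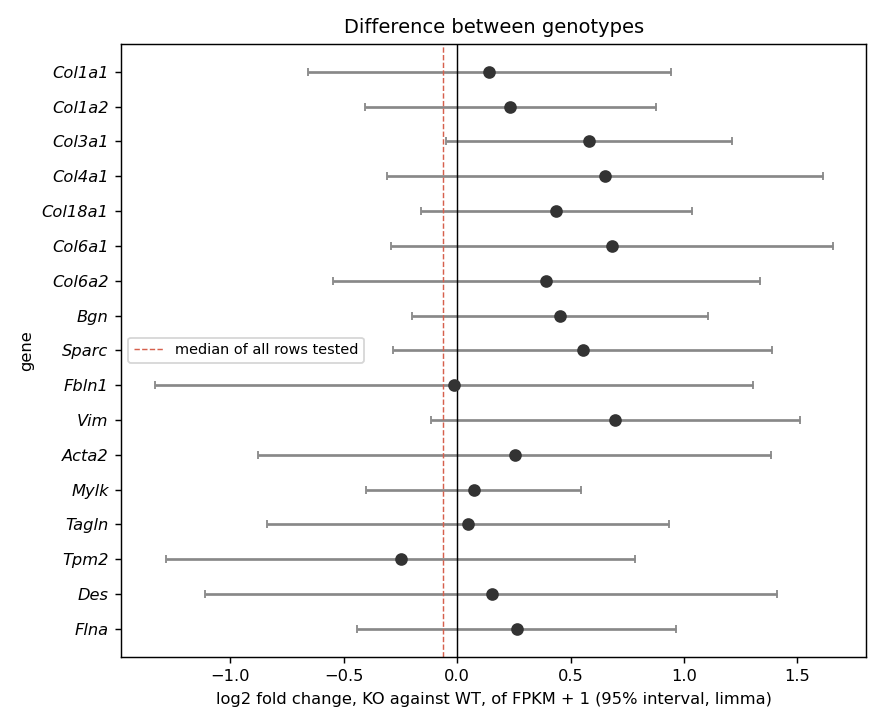
Difference of KO from WT in log2(FPKM + 1) for the 17 tested members, with the point as the limma estimate from 3 KO and 3 WT libraries, the bar as its 95% interval, and a dashed line at the median of all rows tested, -0.06. Every bar crosses 0.

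K86S decided the size of the matrix differences. Without it the median log2 fold change of the matrix members was 0.18 in place of 0.45, that of the smooth muscle members was -0.11 in place of 0.11, and Col1a1 and Col6a2 turned to -0.21 and -0.07. The summed FPKM of the matrix members in KO was 1.28 times that in WT, 1.84 times when Fbln1 was left out, and without K86S these ratios were 0.97 and 1.14. W90S did the same for muscle, with a median of 0.47 over the smooth muscle members when it was left out, while that median was -0.08 without W83S and -0.03 without W89S. No member passed the thresholds in any of these fits.

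A ratio within a library does not depend on the scaling of the library. Whether it depends on which cells were sampled was not tested. Only 2 of the 6 ratios planned had both genes placed. Col1a1 to Col1a2 was 1.86, 1.49 and 1.76 in KO and 2.17, 1.80 and 2.08 in WT, close to the 2 to 1 make-up of the type I collagen molecule in some libraries. It differed by -0.25 on the log2 scale (exact two-sided permutation test, p = 0.2, adjusted p = 0.2 over 2 ratios). Col6a1 to Col6a2 was 2.22, 2.10 and 1.77 in KO and 1.73, 1.42 and 1.62 in WT. The lowest KO library lay above the highest WT library, a difference of 0.35 on the log2 scale (exact two-sided permutation test, p = 0.1, the smallest possible, adjusted p = 0.2). With FPKM + 1 the differences were -0.09 for Col1a1 to Col1a2 (exact two-sided permutation test, p = 0.5) and 0.29 for Col6a1 to Col6a2 (same test, p = 0.1). Both ratios of FPKM varied less between libraries than the genes themselves, whose highest and lowest libraries differed by 3.28 to 5.64 times.

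Other genes of matrix and muscle were taken from lists. None of their genes passed the thresholds with all libraries. Among 10 tested genes of collagen modification and crosslinking 4 had a higher mean in KO, with a median log2 fold change of -0.08, which was 0.09 with TPM and 0.02 with quantile normalization, and between -0.21 (without W89S) and 0.07 (without K82S) when a library was left out. P4hb, a subunit of the prolyl hydroxylase that is also a general folding enzyme, had 880, 536 and 1079 FPKM in KO and 927, 564 and 1036 FPKM in WT. Ppib, a proline isomerase of the endoplasmic reticulum, had 44.5, 66.4 and 41.9 FPKM in KO and 77.3, 68.8 and 69.8 FPKM in WT, with all KO libraries below WT. Serpinh1, the chaperone dedicated to collagen, had 2.64, 3.38 and 7.01 FPKM in KO and 5.03, 2.57 and 3.30 FPKM in WT, and K86S was again the highest. It was picked after its values were seen, and K86S was highest in only 3 of the 10 tested genes of this list.

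Of 5 tested genes of other basement membrane proteins 4 had a higher mean in KO (median 0.36), and 3 did without W90S (median 0.08) or without K82S (median 0.14). Without K79S the median was 0.21. The most abundant were Agrn (agrin), with 35.7, 17.8 and 22.2 FPKM in KO and 16.7, 19.2 and 20.4 FPKM in WT, and Dag1 (dystroglycan), with 14.3, 18.3 and 29.0 FPKM in KO and 24.3, 24.4 and 17.5 FPKM in WT. Of 6 tested genes of other interstitial matrix proteins 5 had a higher mean in KO (median 0.37, with 0.22 without K86S and 0.63 without K82S). Igfbp7, a secreted protein abundant in vessels, had 15.1, 23.4 and 33.5 FPKM in KO and 14.4, 9.95 and 10.8 FPKM in WT (log2 fold change 0.92, adjusted p = 0.393 from limma). Podn, the proteoglycan podocan, had 21.2, 6.77 and 15.4 FPKM in KO and 8.33, 8.08 and 11.7 FPKM in WT.

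Smoc2, a matricellular protein that also marks crypt stem cells, went the other way. It had 1.58, 2.98 and 2.16 FPKM in KO and 3.70, 5.26 and 7.98 FPKM in WT, with no overlap between the groups (log2 fold change -1.01, standard error 0.27, adjusted p = 0.393 from limma). The 6 tested genes of matrix proteases and their inhibitors had a median of 0.18 and all had their highest value in K86S. Without K86S 3 were higher and 3 lower, with a median of 0.00, and the median was 0.43 without K79S, 0.28 without W83S and 0.35 with TPM. Of these Mmp10 had 2.31, 2.36 and 4.01 FPKM in KO and 1.82, 1.59 and 1.49 FPKM in WT, and Mmp9 had 1.34, 1.03 and 3.12 FPKM in KO and 1.37, 2.17 and 1.59 FPKM in WT.

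Integrins and other matrix receptors bind cells to the matrix. Of 9 tested 8 had a higher mean in KO (median 0.32), against 42.3% of all rows, and 3 did not overlap, all higher in KO, against 5.9% of all rows. With TPM 3 did not overlap as well, against 14.3%. With array weights or without K82S 6 were higher and 3 lower, and without K79S or W90S 7 and 2. Without W89S 8 of 8 were higher. Itga3, the laminin receptor subunit, had 62.7, 33.8 and 56.0 FPKM in KO and 43.2, 42.4 and 49.8 FPKM in WT, and Itgb1, its partner, had 32.6, 60.6 and 41.8 FPKM in KO and 41.7, 38.3 and 44.8 FPKM in WT. Their highest library was not K86S, unlike in the collagens.

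The TGF-beta pathway is the best known inducer of matrix genes. Of the 15 genes listed for it 10 were placed and tested, and all 10 had a higher mean in KO (median 0.37), against 42.3% of all rows. They include Smad7 (log2 fold change 0.55) and Skil (0.41), which restrain the pathway. Whether the pathway was more active was not tested. In 4 the groups did not overlap, against 5.9% of all rows, and 3 had an unadjusted p-value under 0.05, against 2.87% of all rows in that direction. The latter count was 0 without W83S, 1 without K79S or W90S, and 6 with TPM, where 8.08% of all rows were under it. With limma's array weights 9 of 10 were higher, without K82S 8 of 10 and without W83S 8 of 9. Tgfbi, a matrix protein induced by TGF-beta, had 98.0, 97.3 and 68.7 FPKM in KO and 48.8, 59.0 and 60.0 FPKM in WT (log2 fold change 0.63, standard error 0.20, adjusted p = 0.393 from limma). Smad4, the shared signal carrier, had 37.2, 19.9 and 39.2 FPKM in KO and 27.3, 27.0 and 24.8 FPKM in WT. No list was tested as a whole.

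Of 14 tested genes of other smooth muscle proteins 8 had a higher mean in KO (median 0.03, with -0.03 without K79S or K82S, -0.04 without W83S and 0.22 with TPM). Myl9, the regulatory light chain of smooth muscle myosin, had 7.35, 4.44 and 11.1 FPKM in KO and 4.62, 4.03 and 17.2 FPKM in WT, with K86S and W90S above the others as in Acta2, Tagln and Des. The most abundant genes, Myl6 and Tpm1, are expressed in most cells. Myl6 had 76.1, 129 and 77.5 FPKM in KO and 112, 138 and 130 FPKM in WT, and Tpm1 had 43.5, 37.2 and 31.9 FPKM in KO and 33.2, 36.9 and 39.5 FPKM in WT.

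Markers of vessels moved with the collagens. Plvap, a protein of the fenestrated capillaries of the villus, had 7.51, 4.74 and 33.8 FPKM in KO and 10.1, 4.94 and 3.19 FPKM in WT. The 3 placed of 14 endothelial markers summed to 37.8 FPKM in K86S, while elsewhere they summed to 4.02 to 12.1 FPKM, and Mcam, the 1 placed of 8 pericyte markers, had 2.67 FPKM in K86S and at most 1.40 FPKM elsewhere. Defining markers such as Pecam1, Cdh5 and Rgs5 were not placed. The part of vessels in the matrix values of K86S was not tested.

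Other cell types of the wall were barely represented. Of the markers of enteric neurons 0 of 11 could be placed, of interstitial cells of Cajal 1 of 6, of enteric glia 1 of 8 and of mesothelium 1 of 6. The glial list rests on Erbb3, which epithelium also expresses (70.9, 76.3 and 69.2 FPKM in KO, 42.5, 41.2 and 40.9 FPKM in WT), and the mesothelial list on Krt19, an abundant epithelial keratin with up to 1409 FPKM. Kit, the marker of the cells of Cajal, was between 0.441 and 1.32 FPKM. The 4 placed of 21 fibroblast and telocyte markers summed to between 39.2 and 59.5 FPKM, most of it Cd81, which many cells express, while Adamdec1, a gene of lamina propria fibroblasts and macrophages, had 6.49, 16.2 and 15.3 FPKM in KO and 6.91, 7.79 and 5.08 FPKM in WT.

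Macrophage markers (6 placed of 9) summed to 63.0, 197 and 98.5 FPKM in KO and 87.3, 242 and 176 FPKM in WT. Much of this was Lyz2, which had 17.5, 122 and 27.0 FPKM in KO and 41.0, 184 and 123 FPKM in WT. The other 5 markers, summed after these values were seen, came to 45.5, 74.9 and 71.6 FPKM in KO and 46.3, 58.6 and 53.2 FPKM in WT, so the highest library was then K82S and not W89S. Markers of lymphocytes and plasma cells (7 of 9, led by Igha) summed to 683, 1083 and 1183 FPKM in KO and 685, 612 and 604 FPKM in WT. Most of this was Igha, with 605, 850 and 1041 FPKM in KO and 592, 515 and 507 FPKM in WT. Each of the other placed markers was highest in K82S, among them Jchain with 162 FPKM, against 122 FPKM in K86S. Vim, which these cells also express, was highest in K82S, where Ptprc, the pan-leukocyte gene, had 4.01 FPKM against at most 1.72 FPKM in the other libraries. Goblet and Paneth cell markers (9 of 9, led by Tff3) summed to between 7634 and 18340 FPKM, with the lowest sum in K86S. Single markers differed from the sum. The Paneth genes Lyz1, Defa24, Mmp7 and Ang4 were lowest in K79S, with 102 FPKM for Lyz1 against 185 FPKM in K86S. Zg16, next to Tff3 in level, was lowest in W90S (2314 FPKM). Of the adipocyte markers 3 of 8 were placed, summing to between 116 and 341 FPKM and led by Pck1, a gene of enterocytes too. The skeletal muscle list rests on 2 of 9 genes and mostly on Acta1, which had 15.7, 102 and 5.66 FPKM in KO and 36.1, 31.3 and 36.7 FPKM in WT, an order unlike that of Acta2. The pancreatic acinar markers (4 of 13, led by Pla2g1b) summed to 2335 FPKM in W83S and to at most 5.77 FPKM elsewhere. None of these sums was tested, and their part in the members' values was not tested.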

How the data were processed

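RNA-seq of the intestine of 3 KO and 3 WT mice was analysed, with 1 library per mouse. From 50 bp single-end reads, trimmed by trim-galore, the authors used HISAT2 (mm10) and StringTie to make the FPKM values they deposited. Versions, annotation and strand handling are not given in the sources used here. The deposited FPKM values hold no read counts. The study lists mapped reads per library, which were not used here, so no counting error was computed and precision rests on the spread between mice.

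Gene identifiers in the deposited table stand beside values of other genes. The nth identifier by K79S was given the nth row by W83S, with small offsets in steps along the ranks. This placed 12402 of 22700 identifiers, 12397 with a symbol in GENCODE M21. Printed values with at most 6 decimals mark a single transcript. They made up 99.67% of the 3649 placed genes with 1 annotated transcript and 5.8% of the 8748 with several, against 33.87% and 34.33% as deposited.

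Rows with FPKM of at least 1 in at least 2 libraries were kept, as in the study, and limma 3.58.1 (R 4.3.3) was run on log2(FPKM + 1) of 13089 rows (variance trend, no covariate, Benjamini-Hochberg adjustment over all rows). The fold change understates changes of low genes. The study's edgeR test was not used, since it needs counts. The script was checked on simulated data. Single genes and ratios were tested by exact permutation in Python 3.11.15 with scipy 1.17.1. Motifs were searched in 32544 RefSeq windows. The rule named, with values, the 3 most abundant members of each member group, members past the threshold and the 5 with the lowest p-value in each direction, of each pathway list the genes past the threshold and the 2 most abundant, and of each list of other cells the 1 or 2 most abundant. Of the genes of other cells, Tff1, Tff3, Pla2g1b, Cd81 and Pck1 are given by name without values. Serpinh1, Smoc2, Myl9, Ptprc, the Paneth genes and, in a plot, Sparcl1 were added after their values were seen. Smad7 and Skil were also named outside the rule. Members and lists were chosen with earlier results of these data known.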

Additional observations from a re-analysis of the deposited data

How the results depend on the processing

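The count of members past the thresholds was 0 with all libraries and under all 15 alternatives (pseudocounts of 0.1 and 0.01, no filter, a mean FPKM of at least 1, TPM, quantile normalization, median scaling, array weights, no trend, and leaving out each library). The lowest adjusted p-value of a member under any of them was 0.123 from limma. Members at an unadjusted p-value under 0.05 numbered 0 in the reported fit, 2 with TPM (8.08% of all rows were higher at that threshold), 1 with quantile normalization (5.9%), 1 with median scaling (4.67%), and 0 to 2 when a library was left out. The latter were 2 without K79S (2.14% of all rows higher), 1 without K82S (4.1%) and 0 in the other such fits. Members with no overlap and higher in KO numbered 1, and 3 with TPM (14.3% of all rows), 2 with quantile normalization (10.3%), 3 with median scaling (8.76%), and 1 to 5 when a library was left out (5 without W83S, where the share of all rows was 7.75%, and 1 without K86S, where it was 12.5%). The median log2 fold change of all rows was -0.061, and 0.091 with TPM. Of the 17 members 9 kept their sign under all alternatives that could test them and 8 did not, among them Fbln1 in 6 of 15, Tagln in 4 and Des in 3. Leaving out single libraries moved the median of the matrix members between 0.18 (without K86S) and 0.62, and that of the smooth muscle members between -0.11 (without K86S) and 0.47 (without W90S). Without K82S, 9.28% of all rows passed the thresholds, 8.88% lower and 0.4% higher in KO, and no member did, with 16 of 17 members higher in that fit, and among the listed genes Acta1, Bmp1, Cd3e, Erbb3, Ppib and Smtn passed. No paired analysis was possible because the labels do not say which KO mouse was matched with which WT mouse, and the replicate numbers only follow the order of the samples.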
